A study of Mus musculus with 5 samples.

Results

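The BCL2 family apoptosis regulators are described here through 10 genes taken by name: the survival genes Bcl2, Bcl2l1 and Mcl1, the effectors Bax and Bak1, and the BH3-only genes Bid, Bad, Bcl2l11, Bbc3 and Pmaip1. All 10 were found by their Ensembl gene IDs among the 29267 genes of the deposited tables. The values come from RNA sequencing of mouse embryonic fibroblasts (MEFs) of the ICR strain while they were being reprogrammed. At day 4 there was a library of cells expressing CypD and a library of cells expressing Flag, with which it is compared. At day 8 there was a library of cells treated with mastoparan, a library of cells treated with paraquat and an untreated control library. CypD is cyclophilin D, the matrix peptidyl-prolyl isomerase encoded by Ppif that promotes opening of the mitochondrial permeability transition pore. Mastoparan is a peptide of wasp venom, and paraquat is a herbicide that generates superoxide by redox cycling. The title of the series names the mitoflash, a transient burst of superoxide signal in a mitochondrion. The labels name no dose, no promoter of the CypD construct and no set of reprogramming factors.

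Proteins of this family decide whether the outer mitochondrial membrane stays intact. The survival proteins hold the effectors in check, the effectors assemble into pores when active, and the BH3-only proteins start the process by binding survival proteins or effectors through a short helix, the BH3 region. Once the membrane is open, cytochrome c leaves the mitochondrion and, with the adaptor Apaf1, activates caspases. Many BH3-only genes are controlled through their transcription, while Bax, Bak1 and Bid proteins are largely controlled after they are made, which RNA levels do not show.

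Each of the 5 groups had 1 library, and no difference between them could be set against replicates or given a p-value. The 95% intervals of folds are exact binomial intervals that cover counting error between the 2 libraries compared and say nothing of variation between cultures. In bulk RNA, fewer cells of a kind and less RNA in each cell cannot be told apart. Libraries held 3426702 (CypD), 2497736 (Flag), 2834186 (mastoparan), 2426015 (paraquat) and 3016439 (control) expected counts, and 3 counts equal 0.869 to 1.30 CPM (counts for each 1000000 reads of the scaled library). The day-8 libraries are labelled as expressing CypD, yet Ppif had 95 (mastoparan), 79 (paraquat) and 90 (control) counts there, against 2629 with CypD and 112 with Flag at day 4. The summed TPM (transcripts for each 1000000) of 10 fibroblast markers was 5817 to 6596 in the 5 libraries. Most of it was Vim (3033 to 4013 TPM) and S100a4 (1282 to 2002 TPM), so the sum says little of the others. Between the days 3 of the 10 lay higher at day 8 without overlap and 4 lower, where 28.5% and 28.1% of all genes did. Dcn had means of 21.2 CPM at day 8 and 51.5 CPM at day 4, Twist1 39.2 and 62.2, and Thy1 68.0 and 40.9. In paraquat over control Dcn was 1.85 times lower (1.19 to 2.92) and S100a4 1.52-fold higher (1.42 to 1.64). Markers of other cell types were detected in part. Of 5 blood markers Adgre1 had no count in any library, Ptprc had at most 1, and Itgam had 2 to 5 counts and overlapped between the days. Cd68 had 13.4 to 17.2 CPM at day 8 and 5.13 to 7.53 CPM at day 4. Csf1r had 3 to 10 counts at day 8 and 0 at day 4. Of 4 endothelial markers Cdh5 had no count and Kdr at most 2, while Tek had 46.4 to 55.1 CPM over the 5 libraries. Pecam1 had 15 counts with mastoparan and 2 in the control, 8.11-fold higher (1.89 to 73.1), and overlapped between the days. The sum over 4 epithelial genes was 301 to 329 TPM at day 8 and 116 to 131 TPM at day 4. That over 5 pluripotency genes was 5.75 to 7.74 TPM at day 8 and 3.03 to 4.06 TPM at day 4. Of these, Nanog had 10 to 21 counts and overlapped between the days. The paraquat library stood apart from the rest of its day, with Pearson's r across 11069 genes, which are not independent replicates, of 0.968 with the control and 0.969 with mastoparan, against 0.984 between mastoparan and control.

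A BH3 region is shared by the members, and the DNA that encodes it is printed below for all but Pmaip1, whose DNA is not shown here, with 12 bases of context on either side. It was searched in frame, on the coding strand, as a leucine codon (CTN), 3 codons of any kind, a glycine codon (GGN) and a codon of an acidic residue. The longest coding sequence of each gene in the GENCODE M21 transcripts was used. Capitals mark the match:
Bcl2: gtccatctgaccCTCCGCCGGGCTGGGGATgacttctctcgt
Bcl2l1: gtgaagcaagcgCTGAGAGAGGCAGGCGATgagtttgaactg
Mcl1: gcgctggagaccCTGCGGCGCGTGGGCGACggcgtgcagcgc
Bax: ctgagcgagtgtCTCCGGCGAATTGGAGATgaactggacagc
Bak1: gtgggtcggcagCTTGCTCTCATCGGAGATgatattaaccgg
Bid: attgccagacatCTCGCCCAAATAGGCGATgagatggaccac
Bcl2l11: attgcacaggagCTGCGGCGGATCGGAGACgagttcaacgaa
The match starts at codon 94 in Bcl2, 90 in Bcl2l1, 194 in Mcl1, 63 in Bax, 76 in Bak1, 90 in Bid and 150 in Bcl2l11. Pmaip1 held 2 matches, at codons 27 and 78, so that 8 of the 10 members had at least 1. The motif is loose, since 4481 of 21373 mouse coding sequences (21.0%) hold it, and it describes the region without proving a BH3 helix. The remaining members, Bad and Bbc3, have another codon in place of the glycine. Their stretches were found with a form in which 2 codons with G in the middle, a methionine codon and a free codon stand between the leucine and acidic codons, which is held in frame by 103 coding sequences (0.482%), and start at codon 151 in Bad and 141 in Bbc3:
Bad: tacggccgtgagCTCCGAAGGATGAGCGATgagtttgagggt
Bbc3: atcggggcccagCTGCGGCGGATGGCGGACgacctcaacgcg

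Levels between genes were compared in TPM, which divides reads by transcript length. Bax, the pore-forming effector (ENSMUSG00000003873; mm10 chromosome 7, 45461697 to 45466898, minus strand), had the highest level of the family in every library, with 728 (CypD), 655 (Flag), 576 (mastoparan), 647 (paraquat) and 565 (control) TPM. Its mean over the 5 libraries was 634 TPM, and no other member overlapped its range. Mcl1, a survival protein with a short half-life (ENSMUSG00000038612; chromosome 3, 95658788 to 95663176, plus strand), followed with 108 (CypD), 102 (Flag), 91.8 (mastoparan), 71.8 (paraquat) and 94.4 (control) TPM. These levels make Mcl1 the leading survival transcript of the family in all 5 libraries.

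Next came Bad, a BH3-only protein silenced by growth-factor phosphorylation (ENSMUSG00000024959; chromosome 19, 6941861 to 6951899, plus strand), with a mean of 69.3 TPM. Bbc3, which encodes PUMA, a target of p53 (ENSMUSG00000002083; chromosome 7, 16308393 to 16318205, plus strand), averaged 63.0 TPM. Bak1, the second effector (ENSMUSG00000057789; chromosome 17, 27019810 to 27029009, minus strand), averaged 44.0 TPM. Bcl2l1, which encodes the survival protein BCL-XL and a shorter isoform of opposite function (ENSMUSG00000007659; chromosome 2, 152780668 to 152831728, minus strand), averaged 37.9 TPM. The ranges of Mcl1, Bad, Bbc3, Bak1 and Bcl2l1 overlap from each gene to the next over the 5 libraries, which are different conditions. Within each library, Mcl1 was above Bad and Bbc3 was above Bak1 in all 5, while the order of Bad and Bbc3 and that of Bak1 and Bcl2l1 changed between libraries. The gene tables do not separate the Bcl2l1 isoforms.

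Bid, whose protein links death receptors to mitochondria once cleaved by caspase 8 (ENSMUSG00000004446; chromosome 6, 120891930 to 120916853, minus strand), averaged 22.8 TPM and overlapped neither neighbour. The lowest levels were those of Bcl2l11, which encodes the BH3-only protein BIM (ENSMUSG00000027381; chromosome 2, 128126038 to 128162547, plus strand), at 5.42 TPM, of Pmaip1, which encodes NOXA, a selective binder of MCL1 (ENSMUSG00000024521; chromosome 18), at 5.02 TPM, and of Bcl2, the founding survival gene (ENSMUSG00000057329; chromosome 1, 106538178 to 106714274, minus strand), at 3.05 TPM on average. Bcl2 had 3.30 (CypD), 3.90 (Flag), 3.05 (mastoparan), 2.32 (paraquat) and 2.69 (control) TPM. These last 3 genes overlap from each to the next in that order.

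**Figure D1:**
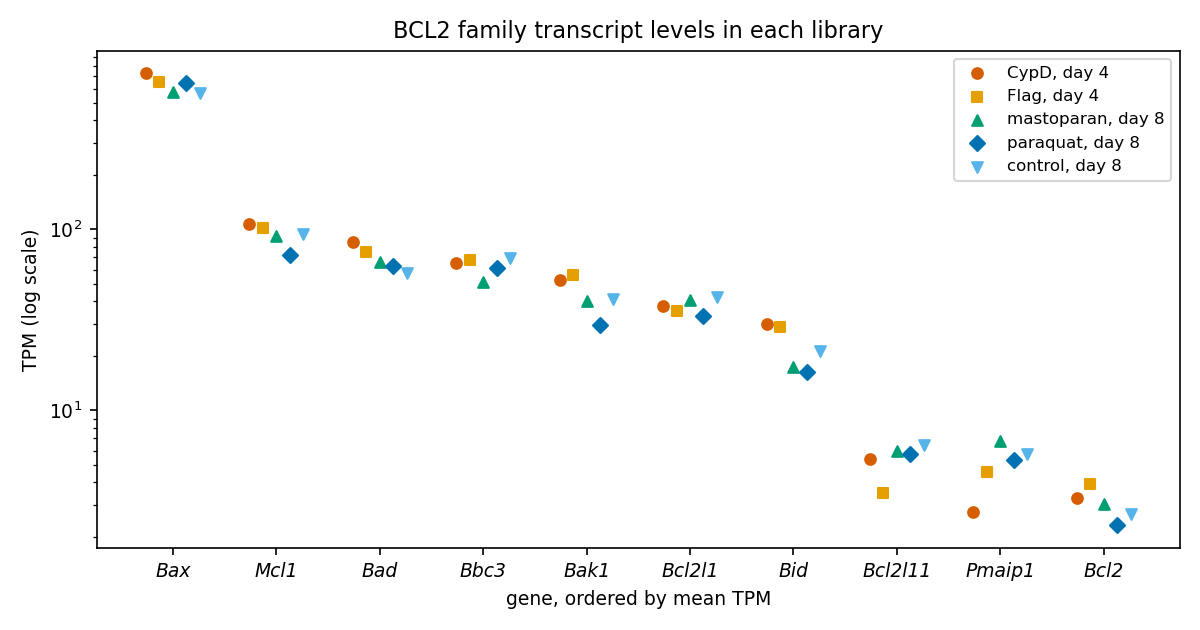
Deposited TPM (log scale) of each of the 10 genes, ordered by their mean, with a point for each of the 5 libraries. Bax lies at 565 to 728 TPM, above every other member, while Bcl2l11, Pmaip1 and Bcl2 lie between 2.32 and 6.75 TPM.

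Summed over the family, the effectors held 69.9% (CypD), 68.8% (Flag), 68.5% (mastoparan), 72.4% (paraquat) and 66.9% (control) of the TPM, most of it Bax. The survival genes held 13.3% (CypD), 13.7% (Flag), 15.1% (mastoparan), 11.5% (paraquat) and 15.4% (control). BH3-only genes made up the rest, 16.1% to 17.7%. The composition was thus similar in the 5 libraries, with the smallest survival share in the paraquat library.

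The ratio of summed survival TPM to summed effector TPM was 0.159 in the paraquat library (95% counting interval 0.144 to 0.175), against 0.229 in the control library (0.210 to 0.250). It was 0.220 (0.201 to 0.241) in the mastoparan library, 0.190 (0.176 to 0.205) with CypD and 0.199 (0.181 to 0.218) with Flag. Mcl1 and Bax made up most of these sums, so Mcl1 over Bax is largely the same quantity. It was 0.111 (0.0995 to 0.124) in the paraquat library and 0.167 (0.152 to 0.184) in the control library. Mcl1 over Bak1, by contrast, was 2.42 (1.998 to 2.92) in the paraquat library and 2.28 (1.956 to 2.67) in the control library, with overlapping intervals. Bax has a mean transcript length of 869 bases, Bak1 one of 2347 and Mcl1 one of 3485, and log2 ratios of all genes in the paraquat library moved with length. With that trend removed, the log2 ratios of paraquat over control were 0.06 for Mcl1 and 0.12 for Bax, in place of -0.11 and 0.48. Little of the difference in Mcl1 over Bax then remained. What gave rise to the length trend was not tested.

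**Figure D2:**
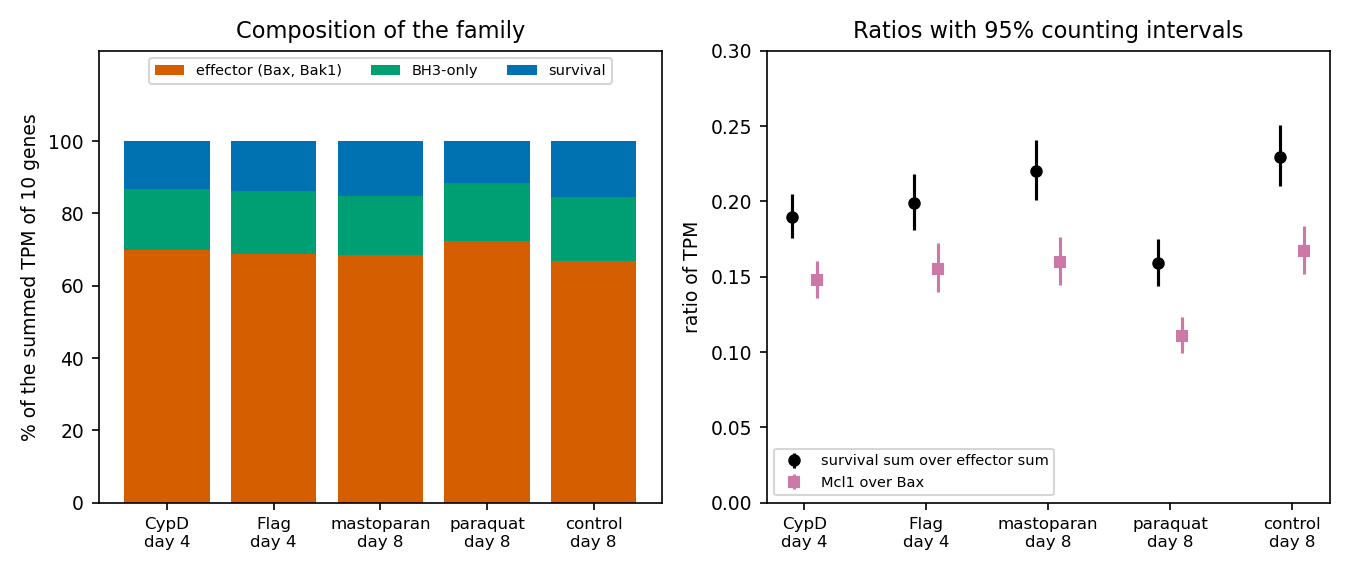
Left, share of the summed TPM of the 10 genes held by effector, BH3-only and survival genes in each library. Right, survival sum over effector sum and Mcl1 over Bax with 95% counting intervals; both are lowest in the paraquat library, at 0.159 and 0.111.

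The first comparison asks what CypD expression did to the family by day 4, relative to Flag. Bcl2l11 stood out, with 57 counts with CypD and 25 with Flag, or 16.5 and 9.87 CPM. This is 1.67-fold higher in the CypD library (1.03 to 2.79), a log2 ratio of 0.71, and the Flag library was also the lowest of all 5 libraries for this gene. Bax was 1.15-fold higher (1.06 to 1.25), with 1430 counts with CypD and 912 with Flag, or 414 and 360 CPM. These were the 2 members whose counting interval left out 1, and across 13244 genes 4.13% had such an interval on the higher side and 4.19% on the lower, 8.32% in all.

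Pmaip1 lay on the other side, with 17 counts with CypD and 20 with Flag, or 4.92 and 7.89 CPM. That is 1.60 times lower in the CypD library, with an interval of 0.798 to 3.26 that holds 1, so that the depth does not show a difference. Bcl2l11 and Pmaip1 were the only members past 1.5-fold, 1 higher and 1 lower, where 5.22% of all genes were past that fold on the higher side and 5.75% on the lower, 11.0% in all. On deposited TPM the log2 ratio of Bcl2l11 was 0.57, under 1.5-fold, and with a pseudocount of 2 CPM that of Pmaip1 was -0.515, likewise under it.

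The survival genes lay close together in the day-4 libraries. Mcl1 had 884 counts with CypD and 593 with Flag, 256 and 234 CPM, a fold of 1.09 (0.985 to 1.22). Bcl2l1 was at 1.10 (0.882 to 1.36) and Bcl2 at 0.922 (0.606 to 1.41). Among the others Bak1 was at 0.933 (0.778 to 1.12), Bid at 1.18 (0.909 to 1.54), Bad at 1.02 (0.812 to 1.29) and Bbc3 at 0.849 (0.691 to 1.04). The median log2 ratio of the 10 genes was 0.08, beside -0.02 over all genes.

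Bcl2l11 and Bbc3 have known links to the forkhead factor FOXO3 in other cells, and their promoter windows (250 bases before to 50 bases after a RefSeq start, GRCm38.p6) are shown because Bcl2l11 gave the largest fold. RefSeq held windows for 9 members and 15 starts. Of the motifs searched on both strands, the forkhead letters GTAAACA occur in 1199 of 32851 mouse windows (3.65%). They lie in 1 of the Bcl2l11 windows (chr2:128125788-128126087, plus strand) and in 1 of the Bbc3 windows (chr7:16310011-16310310, plus strand), where the reverse complement is printed, and in no window of the other members. Capitals mark the motif, which starts 227 bases before the Bcl2l11 start and 167 bases before the Bbc3 start:
Bcl2l11: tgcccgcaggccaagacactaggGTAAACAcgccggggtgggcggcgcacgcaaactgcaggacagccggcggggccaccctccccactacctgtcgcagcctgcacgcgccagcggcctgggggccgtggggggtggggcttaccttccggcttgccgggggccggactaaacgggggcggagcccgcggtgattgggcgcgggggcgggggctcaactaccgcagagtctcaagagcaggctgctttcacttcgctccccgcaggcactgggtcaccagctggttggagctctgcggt
Bbc3: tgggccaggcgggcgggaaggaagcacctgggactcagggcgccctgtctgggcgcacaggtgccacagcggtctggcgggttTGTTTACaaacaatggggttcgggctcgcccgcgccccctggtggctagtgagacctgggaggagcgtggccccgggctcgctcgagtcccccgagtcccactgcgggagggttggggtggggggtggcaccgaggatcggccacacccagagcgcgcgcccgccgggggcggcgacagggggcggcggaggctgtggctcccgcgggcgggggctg
Foxo3 itself had 242 counts with CypD and 188 with Flag, a fold of 0.945 (0.778 to 1.15). A motif match describes the letters of the window and is no evidence of binding. The E-box letters CACGTG, found in 2349 windows (7.15%), occur in 1 of the Bbc3 windows, which is not the one printed above, and 2 times in the window of Bax (chr7:45466849-45467148, minus strand), shown because Bax is the most abundant member:
Bax: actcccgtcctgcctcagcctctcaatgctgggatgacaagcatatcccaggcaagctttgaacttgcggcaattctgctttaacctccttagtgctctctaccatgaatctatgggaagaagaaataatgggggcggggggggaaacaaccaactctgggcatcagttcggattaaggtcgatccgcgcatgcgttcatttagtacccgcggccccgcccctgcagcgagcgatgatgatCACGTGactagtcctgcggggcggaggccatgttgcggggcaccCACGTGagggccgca
E-boxes are bound by MYC among other factors. GC boxes (GGGCGG) were found in 35.7% of all windows and CCAAT boxes in 37.4%.

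The second comparison asks what mastoparan did by day 8, relative to the untreated control. No member was past 1.5-fold, where 5.01% of 13651 genes were on the higher side and 5.87% on the lower, 10.9% in all. The survival genes were near equal. Mcl1 had 648 counts with mastoparan and 695 in the untreated control, or 227 and 225 CPM, a fold of 1.01 (0.905 to 1.12). Bcl2l1 was at 1.01 (0.825 to 1.23) and Bcl2 at 1.19 (0.755 to 1.89).

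The effectors were near equal as well, with Bax at 1.06 (0.966 to 1.15) from 970 counts with mastoparan and 994 in the untreated control, and Bak1 at 1.01 (0.825 to 1.23). Bad, with 131 counts with mastoparan and 109 in the untreated control (46.0 and 35.3 CPM), was 1.30-fold higher (1.0008 to 1.69) and the only member whose interval left out 1, beside 4.01% of all genes on the higher side and 7.27% in either direction. Bad overlaps Gpr137 on the other strand and shares 23.0% of its 49-base windows with it, so reads may be split between the pair. Gpr137 had 103 counts with mastoparan and 131 in the untreated control, and the pair summed gave a fold of 1.05 (0.877 to 1.27).

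Other BH3-only genes gave folds of 0.839 (0.614 to 1.14) for Bid, 0.847 (0.692 to 1.04) for Bbc3, 0.911 (0.607 to 1.36) for Bcl2l11 and 1.22 (0.735 to 2.02) for Pmaip1, all with intervals on both sides of 1. The median log2 ratio of the 10 genes was 0.01, the same as over all genes.

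**Figure D3:**
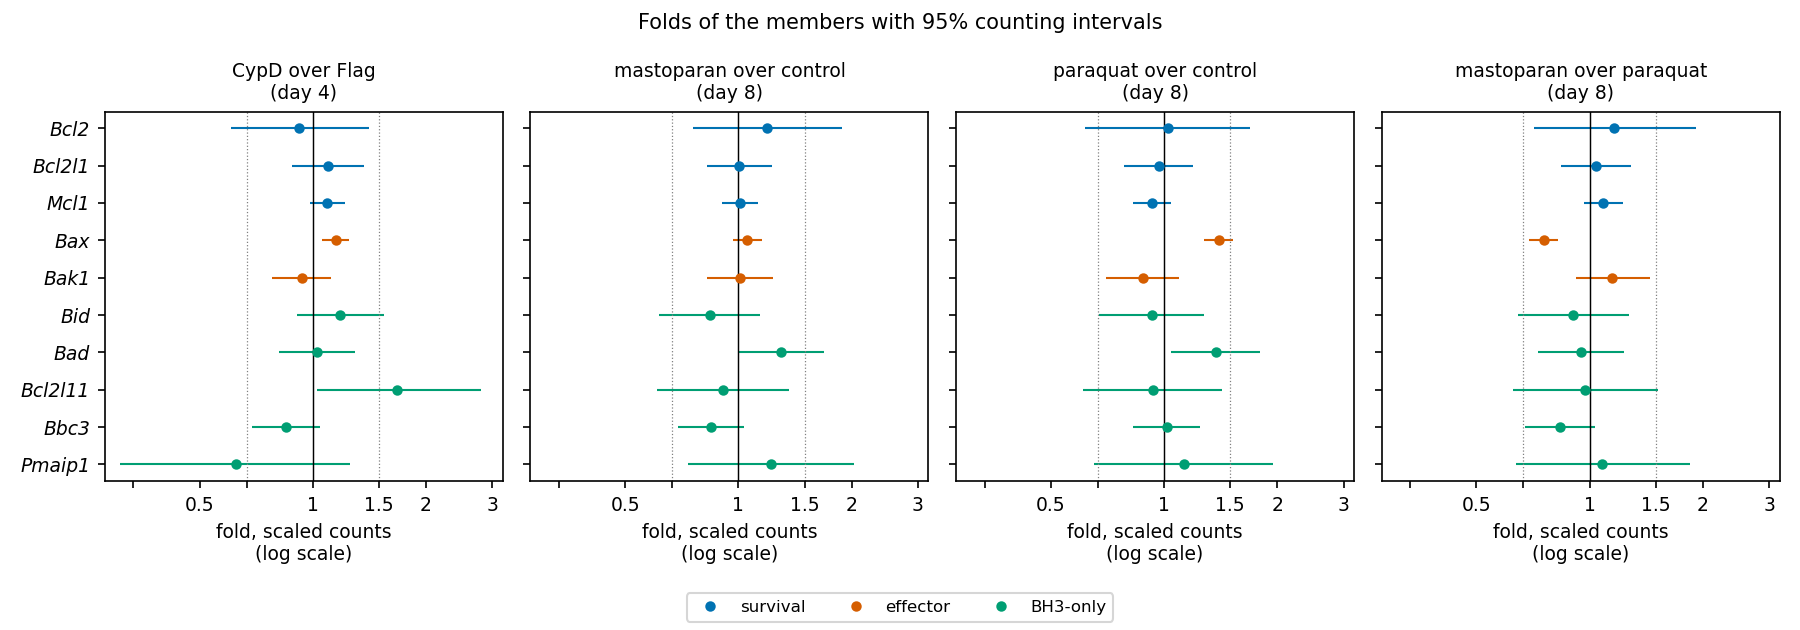
Fold of each member in the 4 comparisons (ratio of scaled counts, log scale), with 95% counting intervals, coloured by class; dotted lines mark 1.5-fold in either direction. Bcl2l11 in CypD over Flag (1.67) and Bax in paraquat over control (1.40) lie farthest above 1 among the members whose interval leaves out 1.

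The third comparison asks what paraquat did by day 8, relative to the same untreated control library that served mastoparan. Bax had 1040 counts with paraquat and 994 in the untreated control, or 451 and 322 CPM, which is 1.40-fold higher (1.28 to 1.53). Bad was 1.37-fold higher (1.045 to 1.80), with 112 counts with paraquat and 109 in the untreated control, or 48.5 and 35.3 CPM. No member was past 1.5-fold, where 18.7% of all genes were, and these 2 were the only members whose interval left out 1, where 11.2% of all genes had such an interval on the higher side and 9.77% on the lower, 21.0% in all.

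Bax and Bad are the shortest transcripts of the family, at mean lengths of 869 and 980 bases. In this comparison the median log2 ratio of all genes was lower at greater length. Over 10 equal groups of genes by length it was 0.40 in the shortest (up to 983 bases) and -0.20 in the longest (from 5325 bases). With that trend removed, Bax had a log2 ratio of 0.12 in place of 0.48, and Bad one of 0.14 in place of 0.45. In mastoparan over control the same length groups had medians of 0.07 and -0.04. Bad summed with Gpr137 was at 1.18 (0.976 to 1.43).

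**Figure D4:**
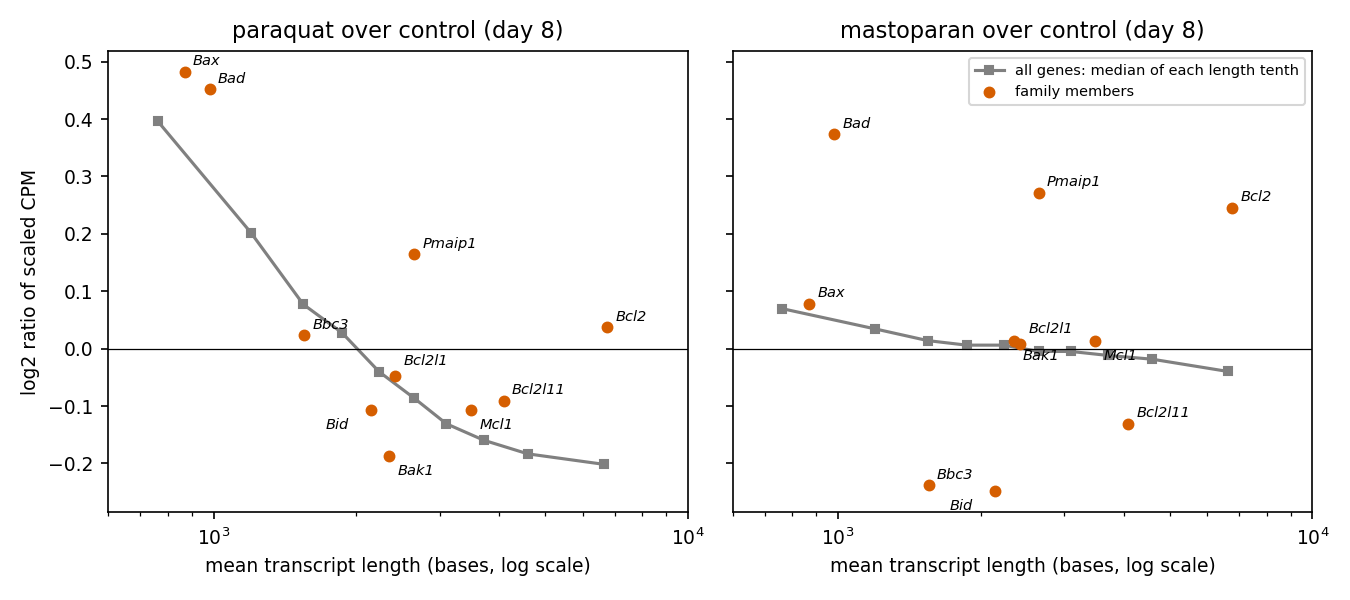
Log2 ratio of scaled CPM against mean transcript length (bases, log scale) for the members (orange) and as the median of each of 10 length groups of all genes (grey). In paraquat over control the grey line runs from 0.40 to -0.20 and Bax and Bad lie at its short end; in mastoparan over control it runs from 0.07 to -0.04.

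The other members had intervals that hold 1 in paraquat over control. Mcl1 had 483 counts with paraquat and 695 in the untreated control, 209 and 225 CPM, a fold of 0.928 (0.825 to 1.04). Bcl2l1 was at 0.968 (0.782 to 1.20), Bcl2 at 1.03 (0.616 to 1.70) and Bak1 at 0.878 (0.702 to 1.09). For the BH3-only genes the folds were 0.927 (0.670 to 1.28) for Bid, 0.937 (0.610 to 1.43) for Bcl2l11, 1.02 (0.829 to 1.25) for Bbc3 and 1.13 (0.650 to 1.94) for Pmaip1. The BIM, PUMA and NOXA genes, which respond to stress in many settings, thus differed from the control library by no more than counting error allows. The median log2 ratio of the 10 genes was -0.01, beside -0.03 over all genes.

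Scaling matters most in this comparison. On deposited TPM the median log2 ratio of all genes was -0.28, with 575 genes past 1.5-fold higher and 3015 lower, against 1112 higher and 1438 lower in scaled CPM. With library totals alone it was -0.13, with 774 higher and 1803 lower, and with the 20 most abundant genes left out of the totals 848 were higher and 1716 lower. The log2 ratio of Bax was above 0 in every setting tried, from 0.12 to 0.53.

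Mastoparan set against paraquat directly gave the same picture for Bax, which was 1.32 times lower in the mastoparan library (1.21 to 1.45). It was the only member whose interval left out 1, where 10.3% of all genes had such an interval on the lower side and 8.89% on the higher, 19.2% in all. No member was past 1.5-fold, where 9.54% of all genes were on the higher side and 7.54% on the lower, 17.1% in all. That is 1302 genes higher and 1029 lower, against 2449 higher and 697 lower on deposited TPM. With the length trend removed its log2 ratio was -0.11 in place of -0.40. Mcl1 had a fold of 1.09 (0.964 to 1.22), Bak1 of 1.15 (0.918 to 1.44) and Bbc3 of 0.834 (0.672 to 1.03). Over the 10 genes the median log2 ratio was 0.01, beside 0.02 over all genes. This comparison shares libraries with the preceding ones, so its values are not independent of them.

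The libraries of the 2 days differed more than those within a day. The 3 day-8 and 2 day-4 libraries were treated differently, are not replicates, and day cannot be told apart from whatever else set the 2 collections apart. Of the 10 members 3 lay higher in all day-8 libraries than in any day-4 library, where 28.5% of 13584 genes did, and 5 lay lower, where 28.1% did. No overlap was found for 56.6% of all genes. The summed blood markers (18.4 to 21.99 TPM at day 8, 7.94 to 11.7 TPM at day 4) were also higher at day 8. Most of that sum was Cd68 (17.75 to 20.9 TPM at day 8, 7.22 to 10.5 TPM at day 4). The epithelial markers were higher at day 8 as well. The part of these markers in the day differences was not tested.

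Pmaip1 showed the widest gap, with 12.6 (mastoparan), 11.7 (paraquat) and 10.4 (control) CPM at day 8, against 4.92 (CypD) and 7.89 (Flag) CPM at day 4. Its mean was 1.75-fold higher at day 8, and it was the only member with a mean past 1.5-fold, where 16.1% of all genes lay higher without overlap and past that fold, and 10.1% lower in the same sense. Bcl2l1 had 69.8 (mastoparan), 67.2 (paraquat) and 69.4 (control) CPM at day 8, against 61.4 (CypD) and 56.04 (Flag) CPM at day 4. Bcl2l11 also lay higher at day 8, but only just, with a lowest value of 16.8 CPM there and a highest of 16.5 CPM at day 4.

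In scaled CPM, Bid and Bak1 gave the largest gaps on the lower side. Bid had 26.7 (mastoparan), 29.5 (paraquat) and 31.8 (control) CPM at day 8, against 44.3 (CypD) and 37.5 (Flag) CPM at day 4, a mean 1.39 times lower at day 8. Bak1 had 67.7 (mastoparan), 58.9 (paraquat) and 67.1 (control) CPM at day 8, against 79.9 (CypD) and 85.6 (Flag) CPM at day 4, a mean 1.28 times lower. Bad, Mcl1 and Bcl2 lay lower by smaller steps, with means 1.19, 1.11 and 1.19 times lower at day 8. Bax and Bbc3 overlapped between the days. With the length trend of all genes removed, the log2 difference of Mcl1 was 0.02 in place of -0.15 and that of Bcl2 was -0.05 in place of -0.26. Bad was then at -0.49 in place of -0.25, level with Bid at -0.49 and beyond Bak1 at -0.32, and Bax was at -0.28 in place of -0.06. The median log2 difference of the 10 genes, day 8 over day 4, was -0.11, beside 0.01 over all genes.

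**Figure D5:**
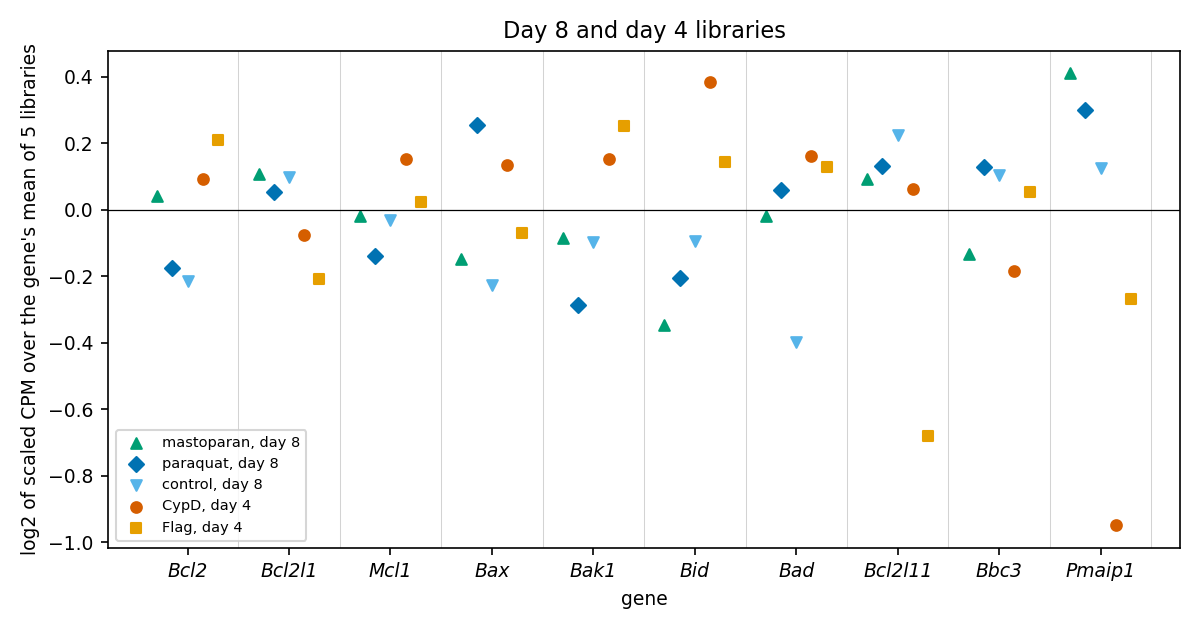
Log2 of scaled CPM in each library over the mean of the 5 libraries for that gene. For Bid and Bak1 all 3 day-8 libraries lie below both day-4 libraries, and for Pmaip1 all lie above; Bax and Bbc3 overlap.

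Bid had the widest range over the 5 libraries among members with a mean of at least 20 CPM. The genes whose pattern over the 5 libraries was most like that of Bid, by root-mean-square distance of centred log2 CPM among 7933 genes, included Yeats4 (0.0361) and Nepro (0.0384).

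Average transcript length, which the tables give for each gene and library, follows the weight given to the transcripts of a gene. It was fixed for Bax at 869 bases, for Mcl1 at 3485 and for Pmaip1 at 2646. For Bid it was 2189 bases in all libraries but Flag, where it was 1975, so that Bid was at 44.3 (CypD) and 37.5 (Flag) CPM but 29.9 (CypD) and 29.1 (Flag) TPM. For Bcl2l11 it was 4453 (CypD), 4217 (Flag), 3969 (mastoparan), 3627 (paraquat) and 4158 (control) bases. For Bbc3 it ranged from 1380 bases in the CypD library to 1733 in the mastoparan library. Isoform use itself was not tested.

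Outside the 10 genes, 15 further BCL2-related genes were followed, and 7 of them at day 4 and 8 at day 8 reached a mean of 1 CPM. The A1 genes Bcl2a1a, Bcl2a1b and Bcl2a1d, survival genes of blood cells, and Bcl2l10 had no count in any library, which allows up to 1.30 CPM at the shallowest depth. The most abundant were Bnip3 and Bnip3l, atypical members that act as mitophagy receptors. Bnip3 had 377 (mastoparan), 363 (paraquat) and 379 (control) CPM at day 8, against 96.1 (CypD) and 91.9 (Flag) CPM at day 4, and its mean was 3.95-fold higher at day 8. Bnip3l was 1.59-fold higher at day 8, with means of 188 CPM at day 8 and 118 CPM at day 4. The BH3-only gene Bmf had 16.8 (mastoparan), 12.6 (paraquat) and 21.1 (control) CPM at day 8, against 6.66 (CypD) and 4.34 (Flag) CPM at day 4. In all, 4 of the 8 compared lay higher at day 8 without overlap and 1, Bok, lay lower, where 28.5% and 28.1% of all genes did. Within days, none was past 1.5-fold in CypD over Flag or in mastoparan over control, where 11.0% and 10.9% of all genes were. In paraquat over control 1 was higher and 2 lower, where 8.15% and 10.5% of all genes were, with Bcl2l12, which shares 11.7% of its windows with other genes, at 1.67-fold higher (1.20 to 2.32) and Bmf 1.68 times lower (1.07 to 2.70). With the length trend removed, their log2 ratios were 0.48 and -0.56, under 1.5-fold. In mastoparan over paraquat 2 were higher and 0 lower, where 9.54% and 7.54% of all genes were. Bcl2l2, a survival gene that shares 12.7% of its windows, was 1.57-fold higher there (1.12 to 2.23). With the length trend removed, its log2 ratio was 0.47 in place of 0.64, under 1.5-fold.

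Downstream of the membrane, the apoptosome, caspase and adaptor list of 10 genes had 4 members past 1.5-fold lower and 0 higher in paraquat over control, where 10.5% and 8.15% of all genes were. Apaf1, the adaptor of the apoptosome, was 1.64 times lower (1.15 to 2.38), with 46 counts with paraquat and 101 in the untreated control. Casp9, the initiator that Apaf1 activates, was 1.54 times lower (1.01 to 2.395), with a log2 ratio of -0.61, or -0.50 and under 1.5-fold with the length trend removed. Casp6, an executioner caspase, had 27 counts with paraquat and 55 in the untreated control, with an interval that holds 1. The median log2 ratio of the list was -0.42, beside -0.03 over all genes, and -0.29 with the length trend removed. Casp9 was 1.69-fold (1.11 to 2.63) and Casp6 1.68-fold (1.04 to 2.77) higher with mastoparan than with paraquat. Cycs, the cytochrome c gene, and Apaf1 had the highest levels of the list, at means of 36.2 and 24.4 TPM. Cycs went the other way, 1.31-fold higher in paraquat over control (1.02 to 1.70), with a log2 ratio of 0.38 with the length trend removed. In that comparison 1 gene of the list had an interval above 1 and 3 had one below. Cycs was 1.43 times lower with mastoparan than with paraquat (1.10 to 1.87). It shares part of its windows with other genes. In CypD over Flag 0 of the 10 were past 1.5-fold, where 11.0% of all genes were. Casp2, at 0.717 (0.557 to 0.923), and Cflar, at 0.734 (0.561 to 0.960), had intervals below 1. Over all genes 4.19% had such an interval on the lower side.

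Among 8 intermembrane space factors and inhibitors of apoptosis proteins, Xiap, a direct caspase inhibitor, was the only gene past 1.5-fold in any comparison. It was 1.51-fold higher in mastoparan over control (1.06 to 2.18), from 77 counts with mastoparan and 55 in the untreated control. Its log2 ratio, 0.5857, was only just past 1.5-fold. Library totals alone took the median of all genes there from 0.0052 to -0.018, a step larger than that margin. Birc5 (survivin) and Htra2 were the most abundant of the 8 genes, at means of 182 and 131 TPM. Htra2 shares 29.2% of its windows with other genes. Birc5 was 1.67 times lower at day 8 than at day 4. Of the 7 outer membrane partners, Ppif alone was past 1.5-fold, in CypD over Flag, where it was 17.2-fold higher (14.3 to 21.0). The channel genes Vdac1 and Vdac2 were the most abundant there, at means of 364 and 281 TPM, and Vdac2, whose protein binds BAK at the membrane, was at 1.065 (0.969 to 1.17) in CypD over Flag. None of the 10 measured regulators of the family was past 1.5-fold within a day. Over all genes 11.0% were in CypD over Flag, 10.9% in mastoparan over control, 18.7% in paraquat over control and 17.1% in mastoparan over paraquat. These shares also apply to the counts of Xiap and Ppif above. Of the regulators Akt1, a kinase that silences BAD, and Trp53, which encodes p53, had the highest means, 182 and 152 TPM. Between the days 2 regulators lay higher at day 8 without overlap and 5 lower, where 28.5% and 28.1% of all genes did. Jun had means of 69.7 CPM at day 8 and 168 CPM at day 4, and Akt1 of 256 and 457. Trp53 had 155 and 239 CPM, and Ddit3 22.8 and 12.2 CPM.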

How the data were processed

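RNA of 5 libraries was taken with Trizol and made into TruSeq RNA libraries from 1 ug of total RNA, per the labels' protocols. Bowtie2 2.2.5 and mm10 were used, per the submitters' processing notes, and no source used here names the counting program. Per the file headers, the authors deposited expected counts, TPM and average transcript lengths for each gene; 16.8% to 19.0% of expected counts in a library were not whole, and the deposited TPM summed to 1000000. Of 29267 gene IDs 28756 had a symbol in GENCODE M21 (GRCm38, the assembly of mm10).

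Expected counts were rounded and scaled by TMM factors (0.951 to 1.02; edgeR 4.0.16, R 4.3.3). Log2 ratios are of scaled CPM with a pseudocount of 0.5, kept where the day's libraries averaged 1 CPM or more, which all 10 members did. Past 1.5-fold refers to these ratios. Folds within a day are ratios of scaled counts without a pseudocount, with 95% intervals by the exact Clopper-Pearson method. Folds between the days are ratios of mean scaled CPM with the pseudocount of 0.5 and have no interval. Reads are not independent molecules, so intervals and floors of 3 counts cover counting error only. Intervals of TPM ratios come from the variance of the counts on a log scale. With 1 library per group no test was run. The code was checked on simulated counts. The length trend was removed by subtracting medians of 40 length bins. Shared sequence was counted in 49-base windows of the transcripts. Python 3.11.15 ran pandas 2.3.3, scipy 1.17.1, matplotlib 3.10.9 and numpy 2.4.6.

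The members, lists, comparisons and naming rule were chosen with earlier results of these data known. Named were all members, up to 3 genes per list and comparison past 1.5-fold with an interval that leaves out 1, the 2 most abundant genes of most lists, the 3 nearest patterns, and Ppif; some genes that meet this rule are not reported here. Casp2, Cflar, Casp6, the folds of Cycs, Bok, Foxo3 and Vdac2 were chosen after their values were seen. So were the values of Bmf, the named regulators and the named fibroblast and pluripotency markers at the 2 days. The A1 genes and Bcl2l10, the promoter and coding motifs and the sums with overlapping genes were likewise chosen after their values or sequences were seen. Alternatives were library totals, DESeq2 1.42.0 size factors, upper-quartile factors, a minimum of 5 CPM or none, deposited TPM, pseudocounts of 0.1 and 2 CPM, the 20 most abundant genes left out, and the trends along length or GC content removed.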

Additional observations from a re-analysis of the deposited data

How the results depend on the processing

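Of the 40 log2 ratios of members, 25 kept their sign in all 11 alternatives, and those that did not were at most 0.17 in size in scaled CPM. The number of members past 1.5-fold in CypD over Flag was 2, and 1 on deposited TPM (Pmaip1, with Bcl2l11 at 0.57) and 1 with a pseudocount of 2 CPM (Bcl2l11, with Pmaip1 at -0.515); the pseudocount shrinks ratios of low counts by construction. The median log2 ratio of the members in paraquat over control, -0.01, was -0.11 with library totals alone and -0.18 on deposited TPM, where the median of all genes was -0.13 and -0.28. The cause of the shift was not tested. The 8 members that did not overlap between days were 7 with library totals alone, 8 on deposited TPM and 8 to 9 when each day-8 library was left out in turn, an alternative chosen after seeing the data; without the paraquat library Bax also lay lower at day 8, and without the mastoparan library Bbc3 lay higher. On deposited TPM Bax also lay lower at day 8 and Bcl2l1 overlapped. Bad summed with Gpr137, also chosen after seeing the data, had intervals that hold 1 in all 4 comparisons, and Bak1 summed with Ggnbp1, which shares 9.16% of its windows, did too. No paired analysis was possible because each group has 1 library and no test. At these depths Pmaip1 (17 to 36 counts), Bcl2l11 (25 to 57) and Bcl2 (30 to 54) could differ by up to about the bounds of their intervals without being detected.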
